A study of Saccharomyces cerevisiae with 9 samples.

Results

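Ribosome footprints of yeast lacking PBP1 alone (pbp1Δ) were compared with those of wild-type (WT) yeast, 3 libraries against 3, over all 6952 entries of the isoform table. These are 6 of the 9 libraries of the study, of which the remaining group lacks both PAB1 and PBP1 (pab1Δpbp1Δ). All strains were Saccharomyces cerevisiae W303, a laboratory background, of mating type MATa with the alleles ura3-1, leu2-3 and leu2-112, his3-11,15, trp1-1, ade2-1 and can1-100, grown in rich medium (YEPD). The pbp1Δ strains differed from WT by the replacement of the PBP1 coding sequence with URA3 (pbp1::URA3), so they also carried a working URA3 gene, which WT lacked. According to the methods of the study, each pbp1Δ library was made from its own isolate, while the WT libraries repeated a single strain as technical replicates. Elsewhere the study calls the replicates of every strain biological, and the methods were followed here. On that reading, p-values treat the spread among technical WT replicates as if it were a spread between isolates, and an effect of Pbp1 loss and an effect of URA3 cannot be told apart.

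Pbp1 is the yeast relative of human ataxin-2, an RNA-associated protein that binds Pab1, the cytoplasmic poly(A)-binding protein, and collects in stress granules. Loss of Pbp1 lets cells live without Pab1, which is otherwise essential. Pbp1 is also known to work with Puf3, a protein that binds the 3′ UTRs of many nuclear-encoded mRNAs for mitochondrial proteins, and to dampen the growth-promoting kinase complex TORC1 in respiring cells. In Ribo-Seq, nuclease-protected fragments are counted, and the count for a transcript reflects both the amount of mRNA and its occupancy by ribosomes, which footprints alone cannot separate.

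The 4 primers that joined the URA3 cassette to the PBP1 flanks are shown because they define the only intended difference between the strains. Each is written 5′ to 3′, and capitals mark the stretch at its 5′ end that is the reverse complement of the partner primer.
PBP1_5R_v2: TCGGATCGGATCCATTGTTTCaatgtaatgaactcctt
URA3_5F_v2: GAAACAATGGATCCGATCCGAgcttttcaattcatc
PBP1_3F_v2: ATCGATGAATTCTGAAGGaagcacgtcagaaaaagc
URA3_3R_v2: CCTTCAGAATTCATCGATccagtgagatc
The upstream pair shared 21 complementary bases and the downstream pair 18.

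The 6 libraries held between 4790126 and 6646835 expected counts, in which reads that fit more than 1 transcript are shared out by estimation. Counts below are normalized counts, scaled by DESeq2 size factors of the 6 libraries. DESeq2 tested 5638 entries, and a call is a Benjamini-Hochberg adjusted p-value below 0.01. It called 68 entries (1.21%), of which 49 (0.869%) were lower and 19 (0.337%) were higher in pbp1Δ. In every one of the 68, the pbp1Δ and WT libraries did not overlap. Among all tested entries the 3 pbp1Δ libraries lay wholly below WT in 11.7% and wholly above in 11.7%. These shares, and 49.8% of tested entries with a fold change below 0, are the background for every gene list below. Changes were small. The median size of a called change was 0.69 on the log2 scale, 11 calls fell by at least 1 and 3 rose by at least 1.

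The number of calls depended on the tool and on single libraries. The edgeR quasi-likelihood test, which allows for uncertainty in each entry's spread, called 2 entries at 0.01, PBP1 and IMD2, and 34 of its 6241 entries at 0.05 (0.545%), of which 32 were among the 68. The remaining pair were MNN4 and MSR1, the mitochondrial arginyl-tRNA synthetase. All 68 had an unadjusted edgeR p-value below 0.05, and their adjusted edgeR p-values reached 0.14. Without WT replicate 1, 2 or 3, DESeq2 called 26, 18 or 20 entries, and without pbp1Δ replicate 1, 2 or 3 it called 90, 32 or 30. Of the 68 calls, 12 held in all of these 6 fits and 9 held in none. The 12 were PBP1, YGP1, MTO1, PHO5, MEF1, RMD9, RIP1, SCW10, BNA5, MEP2, ENA1 and IMD2, and the 9 were MRPL24, MSD1, COX10, MSC6, MME1, NOT3, SAM35, TOH1 and the unspliced form of BOS1. A fit on all 9 libraries, which shares the spread of the pab1Δpbp1Δ libraries, called 33 entries, 31 of them among the 68. It ended the calls of MEP2 (adjusted p = 0.22), BNA4 (0.34), PHO5 (0.0737), GAP1 (0.0744), OPI3 (0.39), RML2 (0.15), MET5 (0.15), ARG1 (0.60) and HIS4 (0.48), among others. With the replicate number added to the fit as a block, 68 entries were called, and only 37 of them were among the 68 above.

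**Figure D1:**
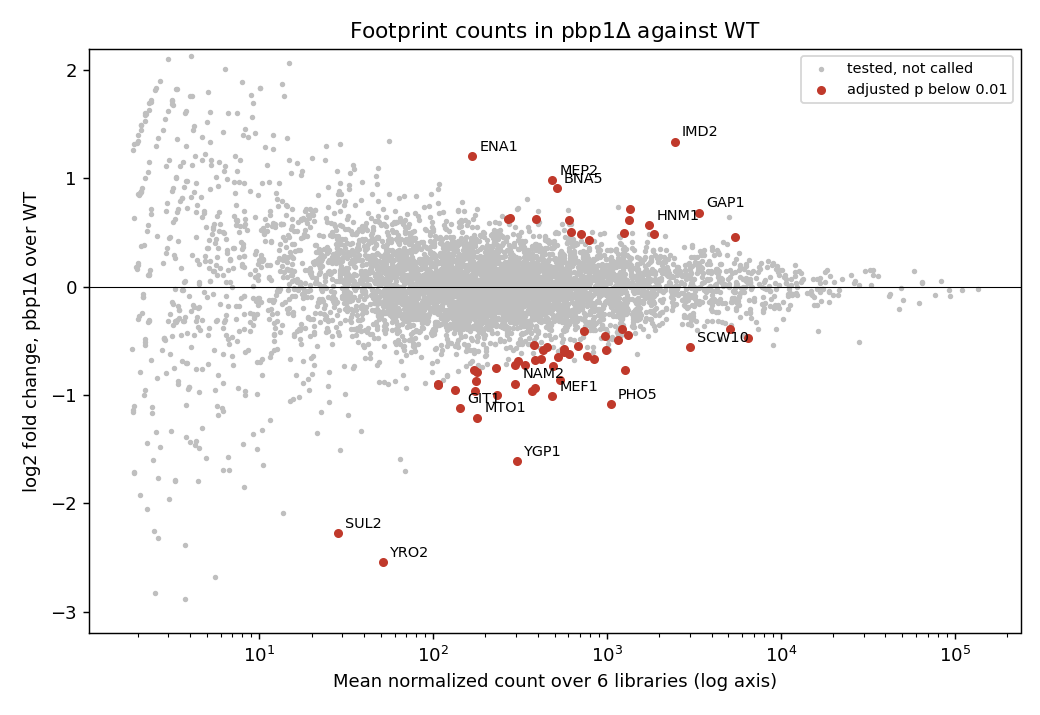
Log2 fold change of pbp1Δ over WT against the mean normalized count over 6 libraries (log axis), 1 point for each of 5638 tested entries, with the 68 called entries in red. Most called points lie below 0, and the vertical axis is drawn from -3.2 to 2.2, which leaves out 47 tested entries, among them PBP1 and 3 other calls with few or no counts in 1 strain.

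The deleted gene was examined first. PBP1 had 832.9, 808.1 and 791.4 normalized counts in the WT libraries and 0, 3.4 and 0 in the pbp1Δ libraries. The 4 reads in pbp1Δ replicate 2 amounted, over the group, to 0.139% of the WT level, with an exact 95% Poisson interval for counting error of 0.0402% to 0.378%. URA3, which encodes an enzyme of uridine synthesis, had 190.8, 228.7 and 218.1 normalized counts in WT, where the ura3-1 allele is transcribed, and 317.4, 319.6 and 346.2 in pbp1Δ, where the reads of the ura3-1 allele and the inserted gene cannot be told apart. The rise was 0.62 ± 0.16 (log2, SE; DESeq2 adjusted p = 0.00762), and its call held in 1 of the 6 fits without 1 library. PAB1, the gene of the partner of Pbp1, had 5418.2, 5755.0 and 5234.1 in WT and 5580.5, 5586.6 and 4652.9 in pbp1Δ, and the groups overlapped (log2 fold change -0.05, adjusted p = 0.94). The annotated neighbours of PBP1 on chromosome VII, ATF2 and OKP1, had log2 fold changes of -0.18 and 0.33 (adjusted p = 0.76 for both). Next to URA3 on chromosome V, GEA2 and TIM9 had -0.16 (adjusted p = 0.83) and -0.14 (adjusted p = 0.71). None of these 4 neighbours was called.

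Nuclear genes that serve expression of the mitochondrial genome were mostly lower in pbp1Δ. Mitochondria translate their own few mRNAs on ribosomes whose proteins, tRNA synthetases and factors are encoded in the nucleus and made by cytosolic ribosomes, and it is the footprints of those cytosolic ribosomes that were counted. Over the 4 lists of large-subunit ribosomal proteins, small-subunit ribosomal proteins, translation and tRNA modification factors, and aminoacyl-tRNA synthetases, 125 members were tested. Of these, 12 were called lower and 0 higher, against 0.869% lower among all tested entries. The fold change was below 0 in 110 of the 125, and in 2805 of all 5638 entries. In 63 of the 125 the pbp1Δ libraries lay wholly below WT, against 11.7% of all entries, and in 4 they lay wholly above. The median log2 fold change was -0.39 over these members and 0.00 over all entries.

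The 13 aminoacyl-tRNA synthetases of mitochondria, which charge tRNAs for the organelle, had the lowest median of the 47 lists. All 13 were below 0, 10 did not overlap WT, and the median was -0.54. Their summed normalized counts were 2137, 2007 and 2165 in WT and 1415, 1328 and 1544 in pbp1Δ. The sums of the strains did not overlap. Called members were MSD1, NAM2 and ISM1. MSD1, the aspartyl-tRNA synthetase, had 141.7, 140.3 and 134.8 normalized counts in WT and 63.8, 82.7 and 76.6 in pbp1Δ, a fall of -0.90 ± 0.22 (log2, SE; adjusted p = 0.00616). NAM2, the leucyl enzyme, which also takes part in splicing of mitochondrial introns, had 417.0, 340.9 and 401.2 against 168.4, 215.1 and 239.5 (-0.90 ± 0.19, adjusted p = 0.000356). ISM1, the isoleucyl enzyme, had 228.5, 220.1 and 235.7 against 117.9, 118.1 and 138.7 (-0.87 ± 0.18, adjusted p = 0.000337). The calls held in 0, 4 and 2 of the 6 fits without 1 library for MSD1, NAM2 and ISM1. At the other end of the list, MSW1, the tryptophanyl enzyme, had a log2 fold change of -0.04 (adjusted p = 0.97).

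Factors of mitochondrial translation held the largest single changes of the group. MTO1, which modifies the wobble base of mitochondrial tRNAs, had 223.9, 236.3 and 288.3 normalized counts in WT and 121.5, 97.0 and 105.7 in pbp1Δ. The fall was -1.21 ± 0.20 (log2, SE; adjusted p = 1.65e-06). MEF1, the mitochondrial elongation factor of the EF-G type, had 675.3, 595.6 and 675.2 in WT against 273.9, 363.5 and 328.7, and fell by 1.01 on the log2 scale (adjusted p = 1.37e-07). RMD9, which binds and protects mitochondrial mRNAs, was the most even, with 599.9, 613.9 and 610.6 in WT and 372.3, 370.2 and 358.8 in pbp1Δ (-0.73 ± 0.12, adjusted p = 1.26e-06). CBP6, an activator of cytochrome b translation, had 174.8, 211.5 and 143.6 against 101.9, 83.5 and 89.2 (-0.95 ± 0.23, adjusted p = 0.00483), and its call held in 2 of the 6 fits without 1 library. These 4 were the called members of 34 tested, of which 28 were below 0 and 16 did not overlap on the lower side (median -0.40). Another 2 members lay wholly above WT. GTF1, a subunit of the enzyme that makes glutaminyl-tRNA in mitochondria, was the highest member, with a log2 fold change of 0.68 and an adjusted p of 0.65.

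Ribosomal proteins of the organelle followed the same direction, with smaller steps. Of 45 large-subunit members, 40 were below 0, 21 lay wholly below WT and 0 wholly above, and the median was -0.36. Called were MRPL24, MRP20, RML2 and MRPL3. MRPL24 had 152.0, 130.6 and 134.8 normalized counts in WT and 75.4, 67.5 and 79.5 in pbp1Δ (-0.91 ± 0.22, adjusted p = 0.00483). MRP20 had 389.6, 400.3 and 350.8 against 244.7, 237.8 and 226.0 (-0.69 ± 0.15, adjusted p = 0.000555). RML2 and MRPL3 fell by 0.60 and 0.58 on the log2 scale (adjusted p = 0.00271 and 0.00745). Leaving out 1 library kept these calls in 0 fits for MRPL24, 2 for MRP20 and 1 each for RML2 and MRPL3. Of 33 small-subunit members, 29 were below 0, 16 lay wholly below WT and 2 wholly above, with a median of -0.35. Only RSM23 was called there, at 285.6, 317.2 and 266.4 in WT and 177.3, 171.2 and 167.8 in pbp1Δ (-0.75 ± 0.16, adjusted p = 0.000808, held in 1 of the 6 fits). The highest members of the lists were RTC6 at 0.16 (adjusted p = 0.91) and KGD4 at 0.39 (adjusted p = 0.51).

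The mitochondrial lists were also examined library by library. On a scaling common to all 9 libraries, the median log2 difference of the large-subunit proteins from the WT mean was -0.20 in pbp1Δ replicate 1 and -0.47 and -0.46 in replicates 2 and 3, while the WT libraries themselves lay at 0.05, 0.00 and -0.11. For the small subunit the 3 pbp1Δ values were -0.25, -0.38 and -0.34. For the synthetases they were -0.53, -0.65 and -0.43. All pbp1Δ libraries were below all WT libraries in each of these lists. Replicate 1 of pbp1Δ also stood apart in cytosolic ribosomal proteins, which lay at 0.28 in it and at -0.07 and -0.03 in the other isolates. With any 1 library left out, the medians of the 4 mitochondrial lists lay between -0.60 and -0.31.

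**Figure D2:**
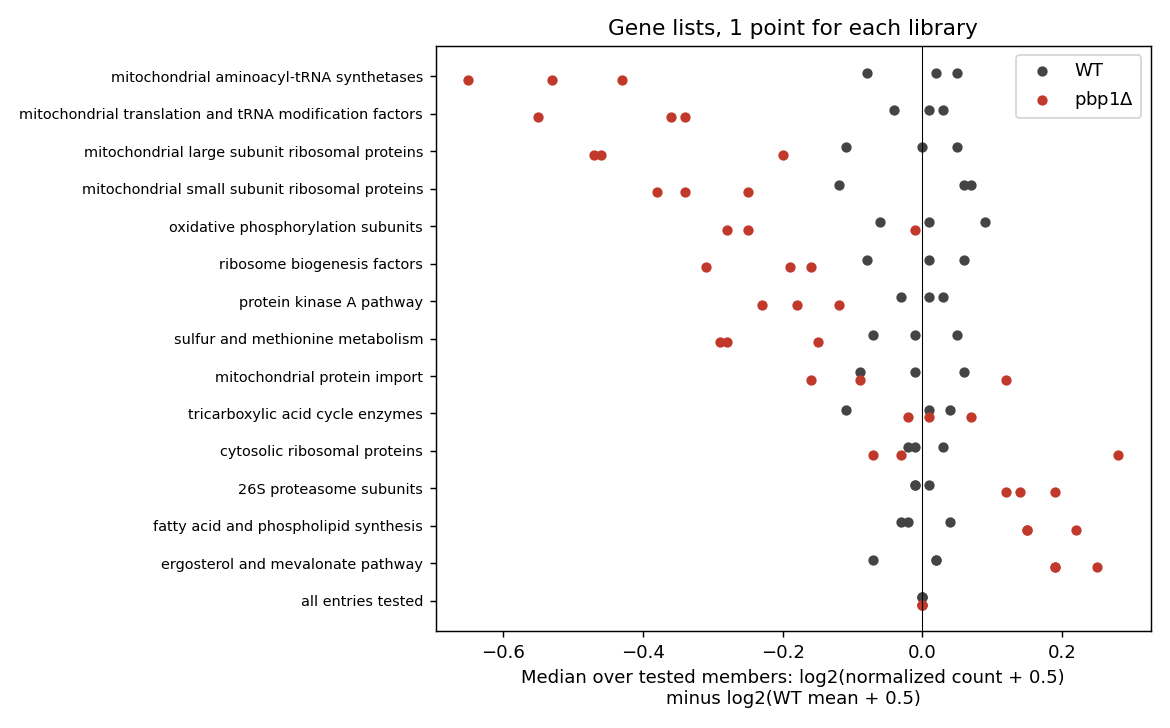
Median difference of each gene list from the WT mean on the log2 scale, after adding 0.5 to counts, with 1 point for each WT (grey) and pbp1Δ (red) library. The red points of the 4 mitochondrial expression lists lie left of all grey points, those of protein import and the tricarboxylic acid cycle overlap them, and those of cytosolic ribosomal proteins fall on both sides.

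The respiratory chain itself, much of it nuclear encoded, was lower in part. Of 43 tested oxidative phosphorylation subunits, 34 were below 0, against 49.8% of all tested entries, and the median was -0.21. In 13 the pbp1Δ libraries lay wholly below WT and in 1 wholly above, against 11.7% on each side over all entries. NDI1, RIP1 and ATP2 were called lower, where 0.869% of all entries were. By library, the list median lay at -0.01, -0.28 and -0.25 in pbp1Δ and at 0.09, 0.01 and -0.06 in WT, so that replicate 1 of pbp1Δ overlapped WT. NDI1, the internal NADH dehydrogenase, had 397.6, 435.9 and 430.8 normalized counts in WT and 244.7, 262.3 and 260.9 in pbp1Δ (-0.72 ± 0.14, adjusted p = 6.84e-05). RIP1, the iron-sulfur protein of the cytochrome bc complex, had 1228.3, 1154.5 and 1171.8 against 758.8, 763.3 and 846.6 (-0.59 ± 0.11, adjusted p = 3.13e-05). ATP2, the beta subunit of ATP synthase, had 5418.2, 5862.9 and 6187.8 against 4398.8, 4311.4 and 4640.3 (-0.39 ± 0.10, adjusted p = 0.00711). As in every call, the strains did not overlap in these 3 genes. The calls of NDI1 and ATP2 held in 4 and 1 of the 6 fits without 1 library. CYC7, a cytochrome c made mainly when oxygen is low, was the highest member at 0.97 on few reads (adjusted p = 0.61).

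Other mitochondrial pathways had medians near 0. Over 19 tricarboxylic acid cycle enzymes 0 were called, and the median was 0.04. Over 33 protein import factors the median was -0.02, and the lowest, MAS1, a subunit of the processing peptidase, was at -0.40 (adjusted p = 0.26). Of the import factors, 7 lay wholly below WT and 2 wholly above, against 11.7% on each side over all entries. Their summed normalized counts were lower without overlap, at 24952, 24984 and 24573 in WT and 22119, 22011 and 21919 in pbp1Δ. The 1 called import factor, SAM35, which inserts proteins into the outer membrane, rose from 219.4, 203.9 and 228.0 normalized counts to 369.7, 298.6 and 342.3 (0.63 ± 0.16, adjusted p = 0.00948), and its call held in 0 of the 6 fits without 1 library.

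Outside the lists, 8 further genes called lower encode proteins known to act in mitochondria. This grouping was made after their values were seen. DPC29, a translation factor of mitochondria, had 334.8, 340.9 and 263.1 normalized counts in WT and 173.8, 150.1 and 144.5 in pbp1Δ (-1.0 ± 0.19, adjusted p = 3.05e-05). MAM33, an acidic protein of the matrix, had 211.4, 240.6 and 242.2 against 117.0, 120.6 and 118.3 (-0.96 ± 0.18, adjusted p = 3.05e-05). As in every call, the strains did not overlap in either gene. COX10, which makes a heme A precursor, fell by 0.79 on the log2 scale (adjusted p = 0.00258), and MME1, a magnesium exporter of mitochondria, fell by 0.77 (adjusted p = 0.0036). MSC6 and CYM1, a matrix peptidase, fell by 0.68 and 0.65 (adjusted p = 0.00753 and 0.00842). The mitochondrial RNA polymerase RPO41 fell by 0.56 (adjusted p = 0.00483), and RPM2, a subunit of mitochondrial RNase P, fell by 0.54 (adjusted p = 0.00988). Of these calls, DPC29 held in 5 and MAM33 in 4 of the 6 fits without 1 library, and the other 6 in at most 1.

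**Figure D3:**
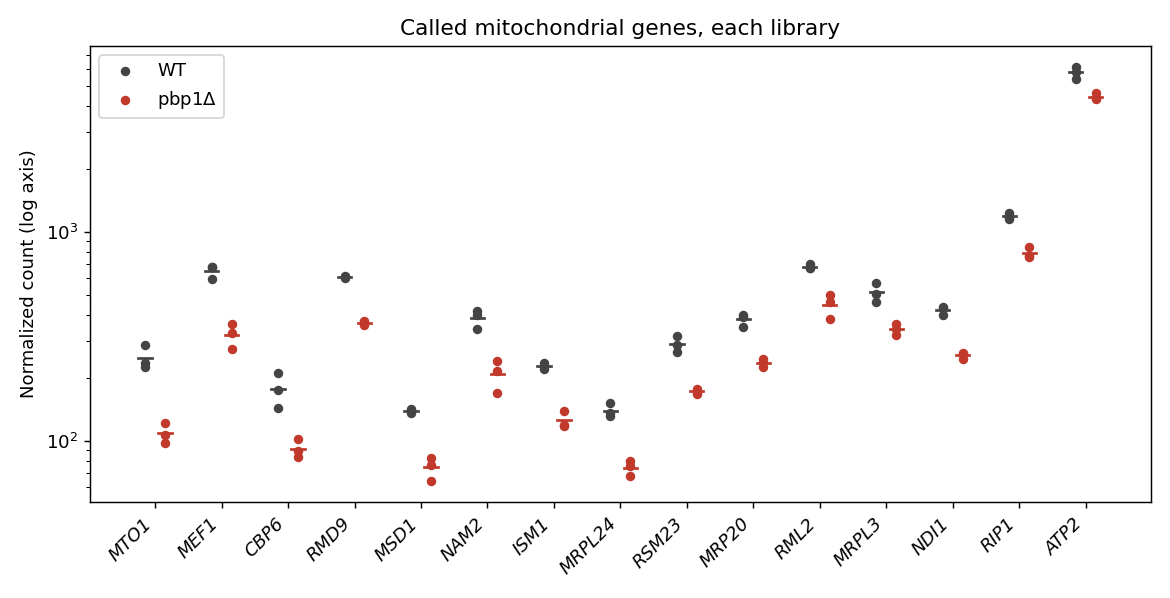
Normalized counts (log axis) of the 15 called mitochondrial genes of the lists in each WT (grey) and pbp1Δ (red) library, with bars at the means of 3. In each gene all 3 red points lie below all 3 grey points.

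PUF3 was itself lower in pbp1Δ. It had 775.8, 780.1 and 875.8 normalized counts in WT and 510.6, 576.0 and 578.0 in pbp1Δ, with no overlap (-0.55 ± 0.13, adjusted p = 0.00207). The call held in 1 of the 6 fits without 1 library. Of the 15 tested members of the list of Pab1, Pbp1 and their partners, PUF3 and PBP1 itself were the 2 called, 13 were below 0, and the median was -0.18. The deletion itself set the place of PBP1 in these values, so PUF3 was the only other call. Over all tested entries 0.869% were called lower and 49.8% were below 0. LSM12, whose protein binds Pbp1, had 453.6, 536.2 and 433.0 against 629.4, 437.7 and 612.9, and the groups overlapped (0.24, adjusted p = 0.67). Over 35 mRNA-binding regulators the median was -0.02, and the highest, HEK2, was at 0.30 (adjusted p = 0.34).

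Among genes of cytosolic mRNA control, 1 decay factor and 1 repressor of initiation were called, where 1.21% of all tested entries were. NOT3, a subunit of the Ccr4-Not deadenylase complex, was the 1 called of 47 decay factors, with 838.7, 848.0 and 829.8 normalized counts in WT and 616.1, 633.4 and 643.9 in pbp1Δ (-0.41 ± 0.11, adjusted p = 0.00983, held in 0 of the 6 fits without 1 library). CAF20, which competes for the cap-binding protein and so limits initiation, was the 1 called of the 27 members of the initiation factor list. It had 1517.4, 1553.7 and 1578.5 in WT and 2398.9, 2101.7 and 2007.4 in pbp1Δ (0.49 ± 0.11, adjusted p = 0.00198, held in 2 of the 6 fits). The medians of the lists were -0.04 and -0.05.

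Both main growth-signalling lists held 1 lower call, where 0.869% of all tested entries were called lower. The calls were 1 of 37 TORC genes and 1 of 21 protein kinase A genes. SCH9, a kinase activated by TORC1, had 1368.8, 1368.1 and 1305.5 normalized counts in WT and 1023.9, 916.8 and 937.8 in pbp1Δ (-0.49 ± 0.10, adjusted p = 0.000608). BCY1, the regulatory subunit that holds protein kinase A inactive, had 1387.1, 1362.7 and 1407.5 against 1039.0, 1058.5 and 1070.6 (-0.39 ± 0.10, adjusted p = 0.0045). Replicates of BCY1 differed little within either strain. Each call held in 1 of the 6 fits without 1 library. Over the 37 TORC genes the median was -0.12, and over the 21 protein kinase A genes it was -0.17 with 16 below 0.

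Among the genes called higher, several act in uptake of nitrogen and in nucleotide and NAD synthesis. MEP2, an ammonium permease, had 339.3, 283.8 and 357.3 normalized counts in WT and 607.3, 715.2 and 613.9 in pbp1Δ (0.98 ± 0.15, adjusted p = 1.78e-07). GAP1, the general amino acid permease, had 2840.5, 2422.2 and 2554.0 against 3717.1, 4701.9 and 4142.8 (0.68 ± 0.13, adjusted p = 3.13e-05, held in 5 of the 6 fits without 1 library). Both are repressed when good nitrogen sources are present. They were the 2 called of 47 nitrogen catabolite repression genes, where 0.337% of all tested entries were called higher. The median of that list was 0.02. It had 7 members wholly below WT and 10 wholly above, against 11.7% on each side over all entries. The 2 extremes of that list, GZF3 at -0.78 (adjusted p = 0.92) and DAL5 at 2.25 (adjusted p = 0.64), rested on few reads. Among 23 amino acid permeases GAP1 was the only call, and the median was -0.16 with 18 below 0, AGP3 lowest at -0.60 (adjusted p = 0.83).

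IMD2, an IMP dehydrogenase of guanine nucleotide synthesis, had the largest rise among called genes that averaged 50 normalized counts or more. Its normalized counts were 1149.4, 1395.1 and 1635.5 in WT and 3200.3, 3709.2 and 3658.9 in pbp1Δ (1.34 ± 0.15, adjusted p = 1.17e-15). IMD2 has close paralogs, and reads shared with them were divided by estimation. It was the 1 called of 32 purine synthesis genes, whose median was -0.03. The lowest was ADE2, mutated in these strains, at -0.59 on few reads (adjusted p = 0.81). In pyrimidine synthesis URA3 was the 1 called of 22. It is the marker inserted in place of PBP1, so its call is no result about the pathway, and no other member was called. URA8, a CTP synthase, stood at 194.2, 232.0 and 263.1 in WT and 320.0, 431.8 and 379.2 in pbp1Δ, without overlap, and narrowly missed the threshold (0.71, adjusted p = 0.0127). PPR1, the activator of pyrimidine genes, was lowest at -0.41 (adjusted p = 0.56).

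BNA4 and BNA5, successive enzymes of the kynurenine route to NAD, were both higher. BNA4 had 299.4, 305.3 and 315.7 normalized counts in WT and 469.8, 462.2 and 487.8 in pbp1Δ (0.62 ± 0.13, adjusted p = 0.000356, held in 1 of the 6 fits without 1 library). BNA5 had 314.2, 377.6 and 378.2 against 567.4, 746.4 and 697.3 (0.91 ± 0.16, adjusted p = 1.15e-05). Of the 40 tested vitamin and NAD genes, 9 were below 0, 10 lay wholly above WT and 3 wholly below, and the median was 0.17. Over all tested entries 49.8% were below 0, 11.7% lay wholly on each side, and 0.337% were called higher. The extremes, SNZ1 at -1.96 and THI13 at 4.86, had few or no reads in a strain and were not called (adjusted p = 0.65 and 0.11).

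Of 38 tested fatty acid and phospholipid genes, 2 were called higher, ITR1 and OPI3, and 1 lower, FAA3. ITR1, the main inositol transporter, had 4955.4, 4259.6 and 4576.4 normalized counts in WT and 6350.0, 6423.3 and 6166.7 in pbp1Δ (0.46 ± 0.10, adjusted p = 0.000555). OPI3, which methylates phosphatidylethanolamine derivatives on the way to phosphatidylcholine, had 1031.8, 1005.6 and 1141.1 against 1334.2, 1700.3 and 1839.6 (0.62 ± 0.15, adjusted p = 0.00434). HNM1, the choline transporter, and CPT1, a cholinephosphotransferase, are in no list here and were also called higher. HNM1 had 1516.2, 1255.9 and 1465.5 against 2182.6, 2019.1 and 2074.3 (0.57 ± 0.12, adjusted p = 0.000233), and CPT1 rose by 0.50 on the log2 scale (adjusted p = 0.00841). FAA3, an acyl-CoA synthetase, moved the other way, from 513.0, 501.7 and 527.2 to 323.6, 292.7 and 354.9 (-0.67 ± 0.14, adjusted p = 0.000356). Leaving out 1 library kept the call in 2 fits for ITR1, 1 for OPI3, 4 for HNM1, 1 for CPT1 and 2 for FAA3. All tested entries had 49.8% below 0, 11.7% wholly on each side of WT, 0.337% called higher and 0.869% called lower. Over the list, 11 members were below 0, 12 lay wholly above WT and 2 wholly below, and the median was 0.12. INO1, which makes inositol phosphate, had 21.7, 35.6 and 37.3 in WT and 49.6, 118.1 and 72.7 in pbp1Δ, the highest of the list, and was not called (1.35, adjusted p = 0.0526).

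Phosphate and sulfate acquisition genes were among the strongest falls. PHO5, the secreted acid phosphatase, had 1647.6, 1116.7 and 1517.1 normalized counts in WT and 592.2, 615.7 and 807.8 in pbp1Δ (-1.09 ± 0.19, adjusted p = 4e-06). GIT1, a permease for glycerophosphoinositol, had 193.1, 180.2 and 212.7 against 71.8, 109.6 and 87.3 (-1.12 ± 0.23, adjusted p = 0.000213, held in 2 of the 6 fits without 1 library). These were the 2 called of 30 phosphate genes, where 0.869% of all tested entries were called lower. Of the 30, 9 lay wholly below WT and 2 wholly above, against 11.7% on each side over all entries. The list median was -0.06. PHO87, a low-affinity phosphate transporter, was highest at 0.53 (adjusted p = 0.33).

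SUL2, a sulfate permease, had 54.8, 45.3 and 40.6 normalized counts in WT and 10.6, 15.2 and 2.9 in pbp1Δ (-2.27 ± 0.53, adjusted p = 0.00261). MET5 and MET10 encode the subunits of sulfite reductase, and both were lower. MET5 had 1402.0, 1684.2 and 1747.3 against 750.9, 1156.3 and 922.2 (-0.77 ± 0.18, adjusted p = 0.00198), and MET10 had 968.9, 1013.1 and 1113.7 against 519.5, 791.1 and 636.2 (-0.67 ± 0.17, adjusted p = 0.00852). For MET5 and MET10, replicate 2 was the highest pbp1Δ library and replicate 1 the lowest. The calls held in 1, 3 and 2 of the 6 fits without 1 library for SUL2, MET5 and MET10. Of 39 tested sulfur and methionine genes, 28 were below 0, 17 lay wholly below WT and 1 wholly above, and the median was -0.15. Over all tested entries 49.8% were below 0, 11.7% lay wholly on each side, and 0.869% were called lower. SUL1, the other sulfate permease, was lowest at -2.88 with under 10 counts in each library (adjusted p = 0.28), and BDS1 highest at 0.43 (adjusted p = 0.90).

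Amino acid synthesis held 3 lower calls without a shift of the list. ARG1 and ARG4, which act in sequence at the end of arginine synthesis, fell by 0.64 and 0.46 on the log2 scale (adjusted p = 0.00695 and 0.00258). HIS4, a multifunctional histidine enzyme, had 716.4, 674.3 and 641.2 normalized counts in WT and 425.5, 468.1 and 473.2 in pbp1Δ (-0.57 ± 0.13, adjusted p = 0.000808). The median over 65 tested members was 0.01, and 31 were below 0. Over all tested entries 49.8% were below 0 and 0.869% were called lower. The calls held in 2, 1 and 1 of the 6 fits without 1 library for ARG1, ARG4 and HIS4. LEU2, mutated in these strains, was highest at 0.39 (adjusted p = 0.56).

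ENA1, the sodium-exporting ATPase, was the 1 called of 38 cation pumps and transporters. It had 84.6, 94.9 and 126.1 normalized counts in WT and 218.1, 221.8 and 264.7 in pbp1Δ (1.20 ± 0.22, adjusted p = 2.29e-05). ENA1 also has near-identical copies in yeast, so its reads are uncertain to that extent. The list median was -0.07. PHO89, which takes up phosphate with sodium, was its lowest member, with 218.2, 161.8 and 143.6 against 122.3, 83.5 and 99.9 (-0.78, adjusted p = 0.0771).

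**Figure D4:**
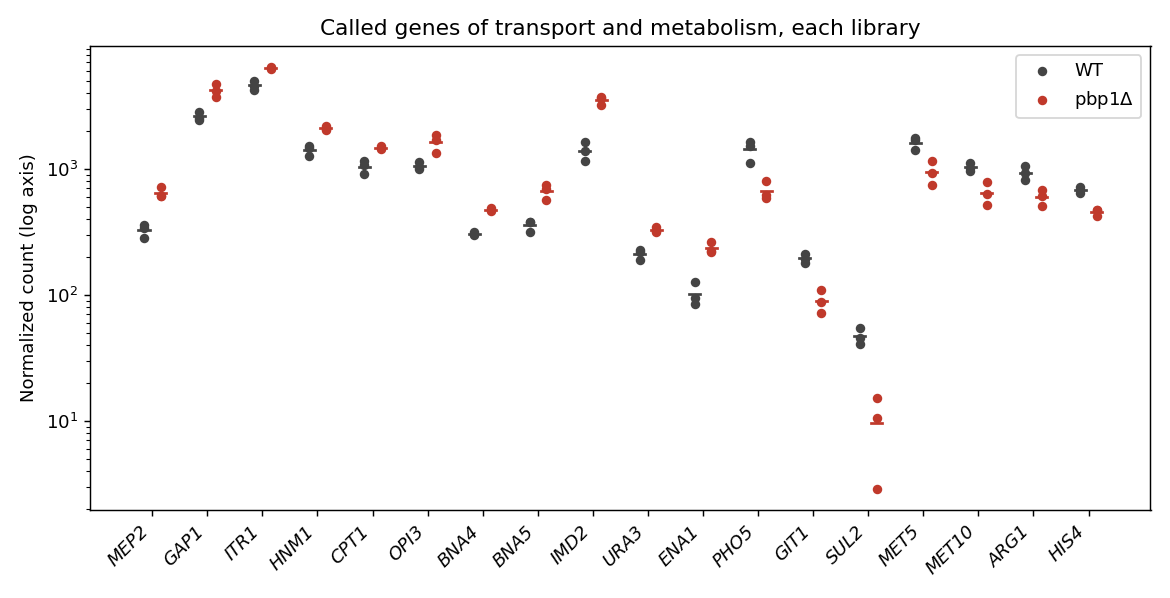
Normalized counts (log axis) of 18 called genes of transport and metabolism in each WT (grey) and pbp1Δ (red) library, with bars at the means of 3. URA3, among them, is the marker inserted in place of PBP1. The first 11 genes, MEP2 to ENA1, lie higher in pbp1Δ, and the last 7, PHO5 to HIS4, lie lower.

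At the cell surface, YRO2 and MRH1, which encode related proteins of the plasma membrane, were both lower. YRO2 had 110.8, 103.6 and 50.4 normalized counts in WT and 14.2, 19.4 and 11.6 in pbp1Δ (-2.54 ± 0.43, adjusted p = 2.15e-06), and MRH1, at a far higher level, had 8468.9, 6556.6 and 7491.1 against 5324.3, 5293.1 and 5569.3 (-0.48 ± 0.12, adjusted p = 0.00745). WT replicate 3 was lower than the other WT libraries in YRO2 but still above pbp1Δ. YGP1, a secreted glycoprotein, had 637.6, 383.0 and 357.3 against 212.8, 139.2 and 97.9 (-1.61 ± 0.31, adjusted p = 5.26e-05). SCW10, a cell wall glucanase-like protein, had 3740.8, 3573.4 and 3392.6 against 2475.1, 2449.2 and 2350.7 (-0.56 ± 0.09, adjusted p = 1.4e-06). YGP1 and SCW10 were the 2 called of 60 cell wall genes, whose median was -0.04. FLO11 was the lowest of these at -2.68 on few reads (adjusted p = 0.23) and DAN1 the highest at 1.49 (adjusted p = 0.87).

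Regulators among the lower calls included HO, HAC1, PHD1 and SFG1. HO, the endonuclease of mating-type switching, had 393.1, 574.0 and 551.4 normalized counts in WT and 214.5, 304.5 and 277.4 in pbp1Δ (-0.93 ± 0.21, adjusted p = 0.00103). It was the 1 called of 30 genes of mating and HO, whose median was 0.01. FUS2 and STE3 bounded that list at -1.79 and 1.76 on few reads (adjusted p = 0.62 and 0.10). HAC1, the transcription factor of the unfolded protein response, had 782.7, 654.9 and 640.2 against 498.2, 327.2 and 315.2 (-0.86 ± 0.20, adjusted p = 0.00271), while the median of the 23 genes of that response was 0.01 and its highest member ERV2 stood at 0.25 (adjusted p = 0.64). PHD1 and SFG1, regulators of filamentous growth, fell by 0.72 and 0.62 on the log2 scale (adjusted p = 0.000555 and 5.34e-05). The calls held in 3, 1, 1 and 3 of the 6 fits without 1 library for HO, HAC1, PHD1 and SFG1, and in 5 and 2 for YRO2 and MRH1.

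The remaining calls with ample reads were small, and each held in at most 2 of the 6 fits without 1 library. MRS6, the Rab escort protein, fell by 0.44 on the log2 scale (adjusted p = 0.0015). HNT1, a nucleotide hydrolase, rose by 0.72 (adjusted p = 0.00983), TAN1, which acts in tRNA acetylation, by 0.62 (adjusted p = 0.00959), TOH1 by 0.51 (adjusted p = 0.00908), LSB5, a protein linked to endocytosis, by 0.49 (adjusted p = 0.00749), and SHB17, a sugar bisphosphatase, by 0.43 (adjusted p = 0.00988). The pbp1Δ libraries stood at 2161.3, 1402.6 and 1480.8 normalized counts for HNT1, replicate 1 being the highest, and the WT libraries at 1122.0, 904.1 and 1046.8.

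Another 4 calls concerned entries with few reads or an unspliced form. The unspliced form of BIG1 had 14.9, 32.4 and 20.8 normalized counts in WT and 0 in each pbp1Δ library, which is at least 25.3-fold lower against a floor of 3 counts over the group. The unspliced form of BOS1 had 11.4, 10.8 and 7.7 and 0 in each, at least 11.1-fold lower. Their spliced forms were not called and stood at 0.60 and 0.41 (adjusted p = 0.39 and 0.0737), and reads that fit both forms were divided between them by estimation. The unspliced entry of YOR192C-B had 549.6, 399.2 and 526.2 against 195.9, 339.9 and 218.2 (-0.97 ± 0.24, adjusted p = 0.00483). YHR054C was at 0 in all WT libraries and at 11.5, 7.6 and 70.8 in pbp1Δ, at least 27.1-fold higher, and replicate 3 supplied most of that level. Without replicate 3 the bound was 8.65-fold. YHR054C resembles part of the nearby gene RSC30, so reads shared between them may be divided unevenly. RSC30 had 645.6, 637.6 and 702.6 in WT and 744.7, 736.3 and 724.4 in pbp1Δ (0.15, adjusted p = 0.65). The calls of these entries held in 5, 0, 2 and 1 of the 6 fits without 1 library, in the order given.

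Some lists shifted with few calls or 0 calls. Over all tested entries 49.8% were below 0, and 11.7% lay wholly on each side of WT. Of 75 ribosome biogenesis factors, 62 were below 0, 25 lay wholly below WT and 1 wholly above, with a median of -0.21 and 0 called. Their summed normalized counts were 83018, 88527 and 92473 in WT and 72574, 80127 and 77763 in pbp1Δ. Higher in pbp1Δ by the same measures were ergosterol and mevalonate genes, with 15 of 32 wholly above WT, 0 wholly below and a median of 0.22, and 26S proteasome subunits, with 12 of 34 wholly above, 0 wholly below and a median of 0.15. Ergosterol gene sums were 86440, 81916 and 84418 in WT and 94431, 99419 and 92926 in pbp1Δ. Proteasome sums were 41120, 41041 and 41282 against 44593, 44307 and 45038, without overlap. In both lists 0 members were called by DESeq2 or, at 0.05, by edgeR, as for ribosome biogenesis. At an unadjusted DESeq2 p-value below 0.05 stood 20 ribosome biogenesis, 11 ergosterol and 6 proteasome genes, and 716 of all entries.

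The 138 cytosolic ribosomal protein genes had a median of 0.07 and 0 calls, and their direction was set by 1 isolate. Their sums were 992256, 950669 and 973925 in WT and 1129807, 917106 and 955996 in pbp1Δ, so that only replicate 1 lay above WT. Without any 1 library the median ranged from -0.04 to 0.14. Glycolysis, histones, cytosolic aminoacyl-tRNA synthetases, heat shock chaperones and RNA polymerase subunits likewise held 0 calls, with medians of 0.04, 0.05, 0.00, -0.01 and 0.00.

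The pab1Δpbp1Δ strain was made from a pbp1Δ strain, carries the same pbp1::URA3 replacement and is set against the same WT libraries. It is therefore no independent test of Pbp1 loss. In pab1Δpbp1Δ, some of the lists and genes above lay elsewhere on the scaling common to all 9 libraries. For mitochondrial synthetases the medians against the WT mean were -0.56, -0.42 and -0.44 in the pab1Δpbp1Δ libraries, beside -0.53, -0.65 and -0.43 in pbp1Δ. For large-subunit ribosomal proteins they were 0.73, 0.14 and 0.30, above WT, beside -0.20, -0.47 and -0.46 in pbp1Δ. MTO1 had 245, 106 and 127 mean normalized counts in WT, pbp1Δ and pab1Δpbp1Δ, and IMD2 1366, 3457 and 3974. PHD1 had 361, 219 and 61.8 mean normalized counts in WT, pbp1Δ and pab1Δpbp1Δ, and SFG1 717, 466 and 122. SHB17 had 655, 886 and 1253. Other called genes lay on opposite sides of WT in the mutants. In the same order, YRO2 had 86.4, 14.8 and 392.5, and ITR1 had 4503, 6196 and 3421. These genes are examples, and the calls of either kind were not counted. The difference between the mutants was not tested here.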

How the data were processed

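The authors treated cell lysates with RNase I, purified 80S ribosomes, removed PCR duplicates by random bases at the read ends, discarded reads of non-coding RNA and quantified the rest with RSEM 1.3.0 and Bowtie 1.0.0 against spliced and unspliced transcripts, after trimming with cutadapt 1.9. They deposited RSEM expected counts per isoform and per gene. The authors also deposited FPKM values, used here only in an alternative. Gene names came from the RefSeq table of assembly R64, in which 6259 of 6952 entries matched.

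Expected counts were rounded and fitted with DESeq2 1.42.0 under R 4.3.3 (3 WT and 3 pbp1Δ libraries, no covariate, independent filtering at 0.01, adjusted p-value below 0.01), as in the study's methods. Of entries with reads, 1 lost its p-value for an extreme count. Alternatives were edgeR 4.0.16, limma 3.58.1 on log2(FPKM + 1) and log2(FPKM + 0.1) for entries with a mean of at least 1, other scalings, filters and thresholds, the gene table, all 9 libraries, a replicate block, and each library left out. The fitting steps were tested on simulated data. No replicate pair agreed within sampling noise (chi-square per degree of freedom 5.97 to 35.7). A limit of 3 counts is 4.51e-05% to 6.26e-05% of a library, and intervals cover counting error only.

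The comparison, the 47 gene lists and the rules were chosen with earlier results of these data known. Genes named were PBP1, URA3, PAB1 and the neighbours of the first pair, the 15 highest and 15 lowest calls with a mean of at least 50 and no overlap, every called list member, the lowest and highest members of lists described, and the 5 entries of largest SD within each strain at a mean of at least 100. Another 14 called entries outside that rule were named after their values were seen.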

Additional observations from a re-analysis of the deposited data

How the results depend on the processing

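DESeq2 called 68 entries. The count was 2 with edgeR at 0.01 and 34 with edgeR at 0.05 (chosen after seeing the data), 1 with limma on either FPKM scale, 33 with all 9 libraries in the fit, 127 at an adjusted p below 0.05, 14 where a change of 1 or more on the log2 scale was also required, and 18 to 90 without 1 library. The cause of the differences between tools was not tested. Other scalings, filters, the gene table and spliced entries alone gave 61 to 70. The main fit did not treat the replicate numbers as pairing, and the labels do not say whether they mark pairs. Deviations from the strain means correlated at 0.301, 0.0503 and 0.369 for replicates 1, 2 and 3, and at most at 0.0345 for libraries of different number. Libraries numbered 1 and 3 thus shared variation across the strains that the main fit left out. With the replicate number as a block, 68 entries were called, 37 of them shared with the fit without it. Calls that ended with the block included BNA4 (adjusted p = 0.0137), MRP20 (0.0142) and NOT3 (0.0477). In every called gene the strains did not overlap, so leaving out 1 library could hardly reverse its direction. Of 1348 values of single genes under alternatives, 1344 kept their direction, which was largely fixed by that choice of genes. The exceptions, none of them called, were GEA2 (-0.30 to 0.01 without 1 library), MSW1 (-0.10 to 0.00), RTC6 (-0.01 to 0.26) and PAB1 (-0.10 to 0.03). GEA2, MSW1 and RTC6 changed sign without pbp1Δ replicate 1, and PAB1 without pbp1Δ replicate 3. Of 423 list medians, 27 moved by more than the spread among the pbp1Δ libraries. Among them, the median of the mitochondrial translation factors was -0.52 over members with a mean of at least 100. The largest absolute chromosome median of a pbp1Δ library was 0.094, and 0.131 with a minimum mean count of 50. SUL1, FLO11 and DAL5, with the widest fold changes of their lists, averaged under 10 normalized counts and were not called.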

Other observations

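Expression varied more among the pbp1Δ isolates than among the WT libraries, which by the study's methods are technical replicates. Over the 5200 entries that averaged 10 normalized counts or more, the median SD of log2(normalized count + 1) was 0.153 in WT and 0.193 in pbp1Δ, and 62.6% of entries had the larger SD in pbp1Δ. Pearson correlations of these values across genes, which are not independent replicates, ranged from 0.976 to 0.984 within WT, from 0.969 to 0.983 within pbp1Δ and from 0.96 to 0.979 across the strains.

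TIS11, an mRNA-binding protein that acts when iron is short, was the only entry among the 5 of largest SD in both strains. It had 2518.3, 1371.3 and 4817.6 normalized counts in WT and 777.5, 1200.1 and 7530.2 in pbp1Δ. In WT the other widest spreads were in FRE7, a copper-regulated reductase (346.2, 599.9 and 68.0), CTR1, the copper transporter (2920.5, 3093.3 and 1079.7), SIT1, an iron-siderophore transporter (164.5, 110.1 and 324.5), and YBL083C (77.7, 48.6 and 209.4). In WT replicate 3, TIS11 and SIT1 were at their highest and FRE7 and CTR1 at their lowest. In pbp1Δ, FRE7 was even at 440.6, 453.7 and 438.3. NMD2, a factor of nonsense-mediated decay, had 51.4, 278.3 and 220.1 in pbp1Δ and 174.8, 244.9 and 263.1 in WT. VTH1 and VTH2 are near-identical genes among which reads can be divided unevenly. VTH2 had 305.0, 414.1 and 1.0 in pbp1Δ and VTH1 0.9, 0.8 and 313.2.

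No chromosome stood apart in any isolate. Over entries that averaged 200 normalized counts or more, the median log2 difference from the WT mean ranged over 16 chromosomes from -0.094 to 0.079 in the pbp1Δ libraries and from -0.043 to 0.043 in the WT libraries.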
